A study of Homo sapiens with 12 samples.

Results

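The genes described here are 10 antiviral effectors that interferons switch on: OAS1, OAS2, OAS3 and OASL, MX1 and MX2, IFIT1 and IFIT3, ISG15 and IFI6. They were taken by symbol, and all 10 were found in each of 2 deposited tables, among 1810 listed genes in one and 1424 listed genes and loci in the other. The set was chosen with earlier results of these data known, so its presence in both tables is not an independent finding. Both tables come from bulk RNA sequencing of DU145 cells, an established human line from a prostate cancer. In the first, unmodified cells (genotype WT in the labels) given the solvent DMSO were compared with WT cells given RSL3 for 24 h, a compound that blocks the lipid peroxide reductase GPX4 and so drives ferroptosis. In the second, cells labelled OE CTRL (oeCTRL) were compared with cells labelled OE ATOH8 (oeATOH8), which overexpress the transcription factor ATOH8. Each of the 4 groups had 3 libraries, 12 in all. The dose of RSL3, the vector and promoter of the constructs, and whether the cells were clones or pools are not given in the sources used here. The tables list only genes that the authors called changed, so a gene that is missing from them could not be assessed.

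Interferons are secreted proteins that bind receptors on the cell surface and act through the kinases JAK1 and TYK2 on a transcription factor complex that includes IRF9. That complex binds the interferon-stimulated response element, a DNA motif near the start of its target genes. The products work against viruses in different ways. OAS1, OAS2 and OAS3 are enzymes that sense double-stranded RNA and make the messenger 2-5A, which activates the nuclease RNase L. OASL is a relative without that enzymatic activity that supports the RNA sensor RIG-I. MX1 and MX2 are dynamin-like GTPases that act on viral ribonucleoproteins and capsids. IFIT1 binds viral RNA that lacks the cap methylation of host RNA, and IFIT3 binds and stabilises IFIT1. ISG15 is a ubiquitin-like protein that is joined to other proteins or secreted, and IFI6 is a small membrane protein. Many cancer cell lines express these genes at a low level with no virus present.

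Because the members share a regulator, their start sites were searched for its motif, and the matching stretches are printed here. RefSeq promoter windows on GRCh38.p14, each 250 bases before to 50 bases after an annotated start, were present for 7 of the 10 genes (OAS1, OAS3, MX1, IFIT1, IFIT3, ISG15 and IFI6), 10 windows in all. The core of the element was searched as GAAANNGAAA on both strands, with overlapping matches counted. It occurred in 8 of these 10 windows and in at least 1 window of 6 of the 7 genes, the exception being OAS1. Of all 35116 windows, 3.57% held it, and of all 27305 genes with a window, 4.38%. In the stretches below, written 5′ to 3′ along the gene's own strand, capitals mark the matches; a match on the opposite strand is shown as its reverse complement.
ISG15, chr1:1013369-1013414, plus strand: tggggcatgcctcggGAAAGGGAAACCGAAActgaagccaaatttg
IFI6, chr1:27672261-27672322, minus strand: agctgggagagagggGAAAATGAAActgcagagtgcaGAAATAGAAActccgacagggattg
IFIT1, chr10:89392492-89392544, plus strand: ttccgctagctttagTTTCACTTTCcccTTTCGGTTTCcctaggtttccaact
IFIT3, chr10:89327826-89327899, plus strand: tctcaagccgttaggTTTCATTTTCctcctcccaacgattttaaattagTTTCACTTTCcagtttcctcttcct
OAS3, chr12:112938316-112938355, plus strand: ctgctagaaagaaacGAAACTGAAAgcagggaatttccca
MX1, chr21:41420559-41420588, plus strand: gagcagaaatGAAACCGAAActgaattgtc

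The positions of these matches differed between genes. Counted from the annotated start, with the base before it as -1, the first match shown lay at -113 in ISG15, -115 in IFI6, -116 in IFIT1, -156 in IFIT3 and -143 in OAS3, and at 12 in MX1, past the start. The 2 matches in ISG15 overlap each other. IFI6 held another match at -156, OAS3 held another at -12, and further annotated starts of IFIT3 and MX1 also had matches. The E-box, searched as CANNTG on both strands, is the motif class bound by helix-loop-helix factors such as ATOH8. It occurred in 5 of the 7 genes and in 73.1% of all genes with a window. In listed genes with a window, it occurred in 72.2% of those lower with RSL3 and 68.6% of those higher. For oeATOH8 the E-box shares were 76.3% of lower and 63.7% of higher genes. These differences were not tested. Among listed genes with a window, the interferon core occurred in 6.99% of 644 genes lower with RSL3 and 3.23% of 711 higher, and in 9.37% of 523 genes lower in oeATOH8 and 3.68% of 353 higher. The lower sets include the members, 6 of 7 with the core, and the other interferon pathway genes described below. Of those pathway genes, 7 of 10 held it for RSL3 and 11 of 15 for ATOH8. The lower shares therefore partly restate genes chosen for their link to interferon. All of these are matches of letters and say nothing about binding.

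The members lie in few places. OAS1, OAS3 and OAS2 follow each other on chromosome 12 from 112906956 to 113011723 (GRCh38), a span of 104.8 kb, MX2 and MX1 lie on chromosome 21 from 41361944 to 41459214 (97.3 kb), and IFIT3 and IFIT1 on chromosome 10 from 89327997 to 89406487 (78.5 kb). OASL is elsewhere on chromosome 12, from 121018882 to 121039242, ISG15 on chromosome 1 from 1013497 to 1014540, and IFI6 on the same chromosome from 27666061 to 27672229. Relatives within a family share little sequence that could misplace reads: of the 31-base words in all GENCODE transcripts, OAS1 and OASL shared 1, MX1 and MX2 shared 38 (0.432% of the words of MX1), and the other pairs of OAS or IFIT members shared 0. Genes on the opposite strand overlap 8 of the 10 (LIPA at IFIT1 and IFIT3, noncoding or pseudogene loci at OAS1, OAS2, OAS3, MX1, ISG15 and IFI6). None of them is in either table. Whether the counting used strand is not given in the sources used here.

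Some facts of the whole tables bear on what follows. The listed genes held 2523743 to 3096832 reads per library in the RSL3 table and 1508188 to 2226518 in the ATOH8 table. These sums cover called genes only and are no measure of library depth. Reads of the overexpressed gene, ATOH8, numbered 13, 10 and 4 in the control libraries and 76508, 72569 and 76043 in those of oeATOH8. In the RSL3 table, replicates 2 and 3 of each group were almost alike: a chi-square over their reads, divided by its degrees of freedom, was 1.64 for DMSO and 1.80 for RSL3, against 59.1 to 101 for pairs with replicate 1. The labels do not say that replicates were separate cultures, so p-values measure the spread between these libraries, which may be technical. Of 6 markers of this epithelial line, CDH1 and EPCAM were listed in the RSL3 table and CDH1 and KRT8 in the ATOH8 table, all lower in the RSL3 or oeATOH8 group, and no luminal prostate, fibroblast or endothelial marker was listed in either.

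With RSL3, all 10 members were lower. The drop ran from 2.34-fold (ISG15) to 6.39-fold (OAS1), and in each of the 10 genes every RSL3 library was below every DMSO library. By limma with Benjamini-Hochberg adjustment over the listed genes, 10 of 10 passed on the lower side at an adjusted p under 0.05 (0.0124 to 0.0368), where 38.9% of the 1732 tested genes did. Lower groups without overlap were found in 37.6% of the tested genes. These shares count genes of both directions: the tested lower genes numbered 803, and 674 genes passed on the lower side. The authors had already called every listed gene changed, so passing does not set the members apart from other lower genes. The median log2 fold change was -2.22 for the 10 members, 0.51 for all tested genes and -1.10 for the tested genes that were lower. The split of limma calls, 674 lower and 747 higher, moved to 480 and 154 with libraries scaled to their listed totals. It was 638 and 239 by TMM, and 639 and 259 by relative log expression. Under these 3 scalings 9, 10 and 10 members passed. In bulk RNA, fewer cells with these transcripts and less RNA per cell cannot be told apart.

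The RSL3 calls rest on how the replicates are counted. With the nearly alike replicates 2 and 3 averaged to 1 sample per group, limma passed 0 of 10 members (adjusted p of 0.0726 to 0.143) and 3 genes in all, while 10 members had an unadjusted p under 0.05 and the member median was -2.43. On the reads of all 6 libraries, edgeR and DESeq2 passed 10 each, where 726 and 800 of the 1732 tested genes passed on the lower side and 835 and 927 on the higher side. By limma, leaving out DMSO replicate 2 or DMSO replicate 3 also left 0 (10 and 9 at an unadjusted p under 0.05). In these settings 1 and 2 of 1744 tested genes passed on the lower side. Without DMSO replicate 1, 8 members passed (all but OAS1 and OAS2), where 718 of 1785 tested genes did on the lower side. Without RSL3 replicate 1, 8 passed (all but OAS2 and IFIT3; 525 of 1783 genes), and without RSL3 replicate 2, 9 passed (all but IFIT3; 208 of 1783). Without RSL3 replicate 3, 6 passed (all but OAS1, OAS2, MX2 and IFIT3; 190 of 1780). With both libraries numbered 1 left out 10 passed, with a median of -1.69, where 839 of 1778 genes did. When every one of 59792 annotated genes was counted as a test, 0 members and 0% of tested genes passed on the lower side (limma adjusted p of the members 0.429 to 1).

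**Figure D1:**
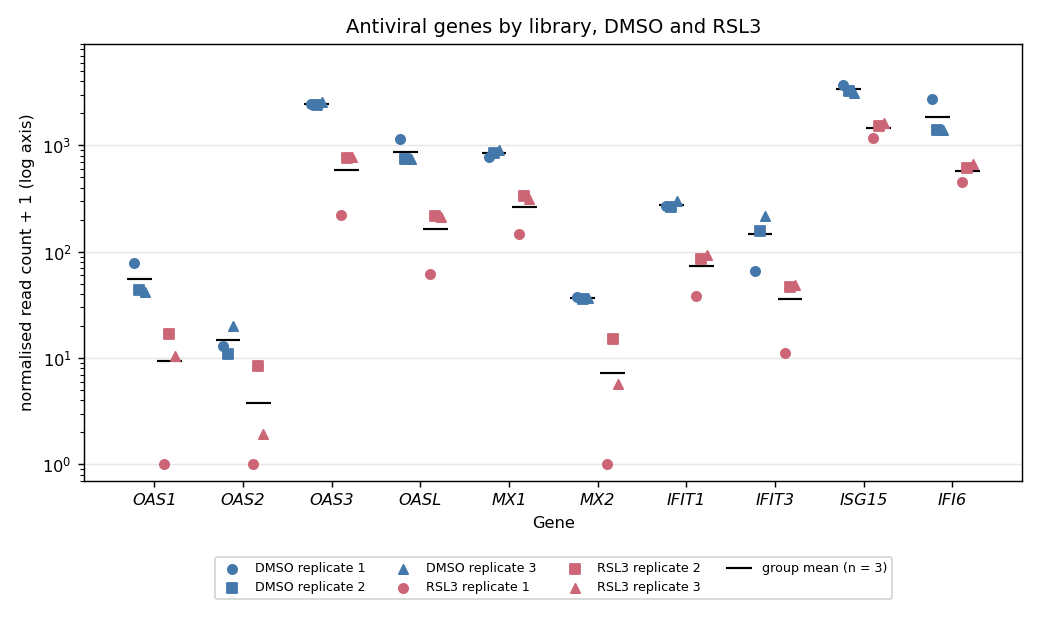
Normalised read count plus 1 (log axis) of the 10 genes in the 3 DMSO (blue) and 3 RSL3 (red) libraries, with marker shape giving the replicate number and black lines the group means. Every RSL3 point lies below every DMSO point of its gene, and RSL3 replicate 1 is the lowest of the RSL3 libraries for all 10, for OAS2 by 0 reads against 1.

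Overexpression of ATOH8 also went with lower levels of all 10 members. The fall ran from 2.23-fold (OASL) to 31.9-fold (OAS1), and again no oeATOH8 library reached any oeCTRL library of the same gene. By edgeR's quasi-likelihood test all 10 fell (adjusted p of 1.09e-09 to 2.06e-05 over the listed genes), where 58.6% of the 1424 tested genes passed on the lower side and 58.3% were lower without overlap. With 75204 genes and loci counted as tests, all 10 still passed (edgeR adjusted p of 5.73e-08 to 0.00109), where 46.3% did on the lower side. The median log2 fold change was -2.46 for the members, -1.10 for all tested genes and -1.41 for the lower ones. All 10 also passed under each of the 15 other settings run, but 835 lower and 589 higher calls make up all 1424 tested genes, so passing does not set the members apart from other listed genes. Scaling by relative log expression moved all log2 fold changes up by 0.91 and the split of lower and higher calls from 835 and 589 to 418 and 589. The members then ran from -0.25 (OASL, adjusted p = 0.0293 by edgeR) to -4.06 (OAS1), with OAS3, IFIT3 and ISG15 at -0.83, -0.78 and -0.44.

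**Figure D2:**
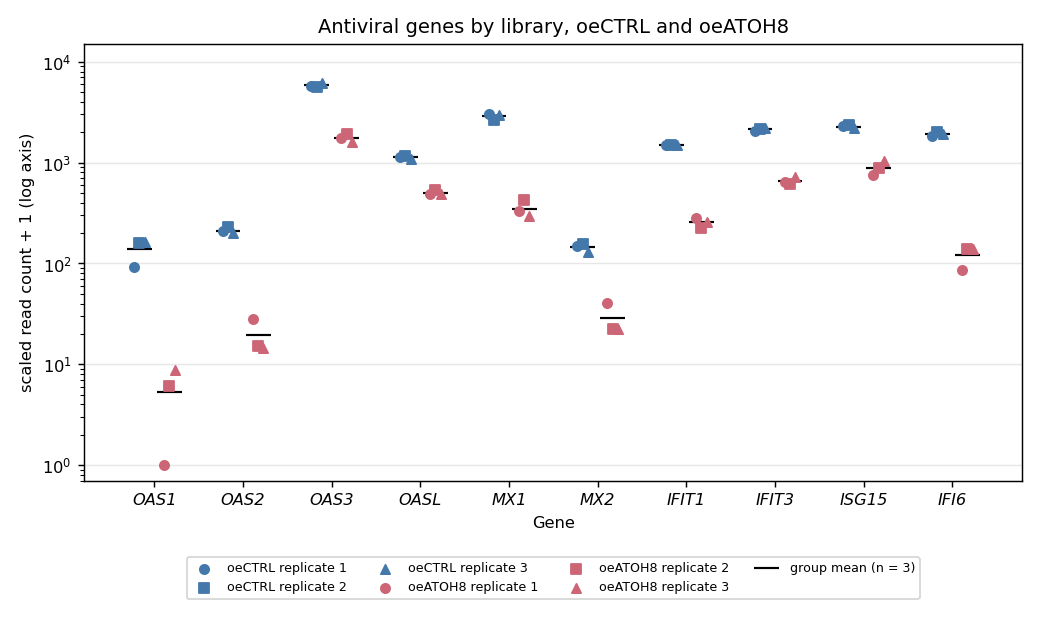
Scaled read count plus 1 (log axis) of the 10 genes in the 3 oeCTRL (blue) and 3 oeATOH8 (red) libraries, with marker shape giving the replicate number and black lines the group means. The groups do not overlap for any gene, and the distance between them is widest for OAS1 and IFI6.

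Among the OAS genes, OAS1 had the largest fold of the 10 members in both tables with all libraries in. In the RSL3 table it lost that place without DMSO replicate 1, without RSL3 replicate 2 or without both libraries numbered 1. Without DMSO replicate 1 its fold was 4.96, below MX2 (5.67), IFIT3 (5.36) and OAS2 (5.18). OAS1 had normalised read counts of 78.0, 42.8 and 41.0 in DMSO replicates 1 to 3 and 0, 15.9 and 9.39 in RSL3. The 0 in RSL3 replicate 1 allows a level of up to 4.34 by the limit of 3 reads, which covers counting error only. DMSO replicate 1 was the highest library and RSL3 replicate 1 the lowest, so the gap between groups was widest within that pair. The level fell from 53.9 ± 20.9 to 8.44 ± 8.01 (SD, n = 3), 6.39-fold (log2 fold change -3.23, SE 0.98, limma adjusted p = 0.0356). The fold was 3.31 with both libraries numbered 1 left out and 11.5 without RSL3 replicate 2. Under ATOH8, 95, 153 and 156 reads of OAS1 in the controls became 0, 5 and 8. By fold this fall ranked 2 among all 1424 rows (log2 fold change -4.96, SE 0.57, edgeR adjusted p = 7.58e-06). It was 53.4-fold without oeATOH8 replicate 3.

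OAS2 was near the detection limit in the RSL3 table. Its reads numbered 11, 13 and 22 with DMSO and 0, 8 and 1 with RSL3, and the lowest DMSO library was only 1.32 times the highest RSL3 library after normalisation. Its fold of 4.88 rose to 29.3 without RSL3 replicate 2, so a single library set its size (limma log2 fold change -2.48, SE 0.79, adjusted p = 0.0368). In the ATOH8 table it was well above that limit, at 215, 219 and 193 reads in the controls, and 28, 14 and 14 with ATOH8. OAS2 fell 11.5-fold there (log2 fold change -3.51, SE 0.30, edgeR adjusted p = 5.95e-07), rank 12 in the table by fold.

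OAS3, the longest family member, was the most heavily read of the 4. Its normalised counts were 2471, 2404 and 2538 in DMSO and 219, 753 and 786 in RSL3. The DMSO libraries agreed closely, and RSL3 replicate 1 stood far below the other RSL3 libraries. OAS3 was 4.22-fold lower (log2 fold change -2.29, SE 0.46, limma adjusted p = 0.0172). With ATOH8 its scaled counts went from 5686, 5615 and 6222 to 1754, 1901 and 1587, a 3.34-fold fall (log2 fold change -1.74, SE 0.08).

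OASL, the RIG-I-supporting relative, was near the top of the 10 in one table and last in the other. Its normalised counts were 1139.8, 737 and 744 in DMSO and 60.8, 216 and 211 in RSL3, a 5.37-fold drop (log2 fold change -2.60, SE 0.49, limma adjusted p = 0.0147) that was 3.47-fold with both libraries numbered 1 left out. Only OAS1 and MX2 had a larger fold with RSL3. With ATOH8 it went from 1127, 1151 and 1092 to 483, 537 and 493, the smallest fall of the 10 (2.23-fold, log2 fold change -1.16, SE 0.08, edgeR adjusted p = 1.02e-07). By fold it ranked 655 of 1424 in that table. The difference in fold between the tables was not tested.

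The GTPase genes lie side by side but differ in level. MX1 had normalised counts of 778, 854 and 906 in DMSO and 145, 334 and 312 in RSL3, 3.21-fold lower (log2 fold change -1.77, SE 0.32, limma adjusted p = 0.0147). MX2 was much lower in level, its reads numbering 33, 46 and 41 under DMSO, then 0, 15 and 5 under RSL3. Its DMSO libraries were even (35.7 ± 0.576 normalised counts) and its RSL3 libraries were spread over the range near the 3-read limit (6.25 ± 7.16). The MX2 drop of 5.71-fold (log2 fold change -3.06, SE 0.89, adjusted p = 0.0326) became 15.2-fold without RSL3 replicate 2 and 3.78-fold with both libraries numbered 1 left out.

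With ATOH8 the order of MX1 and MX2 was the reverse. MX1 went from scaled counts of 3035, 2667 and 2986 to 330, 423 and 296, an 8.29-fold fall (log2 fold change -3.05, SE 0.12, edgeR adjusted p = 2.15e-09). MX2 went from 146, 155 and 129 to 39.9, 21.6 and 21.3, a 5.20-fold fall (log2 fold change -2.37, SE 0.31). In MX2, as in OAS2, oeATOH8 replicate 1 was the highest of its group, by 1.86 and 1.95 times the mean of the other libraries. Whether MX1 and MX2 differ in their response was not tested.

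The RNA-binding IFIT proteins work as a complex, and their genes fell in both comparisons. IFIT1 had normalised counts of 269, 263 and 298 in DMSO and 37.6, 85.4 and 92.0 in RSL3, a 3.86-fold drop (log2 fold change -2.03, SE 0.36, limma adjusted p = 0.0143). IFIT3 was uneven within DMSO, at 64.8, 154 and 217, and read 10.1, 46.0 and 47.9 in RSL3. It was the one member clearly low in replicate 1 of both groups (0.349 of the mean of DMSO replicates 2 and 3, and 0.216 of that of RSL3 replicates 2 and 3), so its groups came within 1.35 times of each other. IFIT3 was 4.20-fold lower (log2 fold change -2.15, SE 0.67, adjusted p = 0.0363), and its call ended with scaling to listed totals, where the log2 fold change was larger (-2.60, limma adjusted p = 0.0603). Without RSL3 replicate 1, 2 or 3 its limma adjusted p was 0.0503, 0.0532 and 0.0510. With ATOH8, IFIT1 went from scaled counts of 1490.5, 1493 and 1499 to 284, 226 and 256 (5.85-fold, log2 fold change -2.55, SE 0.09), and IFIT3 from 2046, 2146 and 2198 to 643, 619 and 725 (3.22-fold, log2 fold change -1.68, SE 0.08).

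ISG15, the ubiquitin-like modifier, was the most abundant member per length and moved least with RSL3. Its normalised counts were 3736, 3239.7 and 3141 in DMSO and 1169.95, 1523 and 1635 in RSL3, 2.34-fold lower, with the smallest error of the 10 (log2 fold change -1.23, SE 0.19, limma adjusted p = 0.0124). With ATOH8 it went from scaled counts of 2284, 2353 and 2195 to 759, 886 and 1027, a 2.56-fold fall (log2 fold change -1.35, SE 0.10, edgeR adjusted p = 2.03e-07). The groups did not overlap in either table.

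IFI6, the membrane protein gene, differed more between the tables. Its normalised counts were 2742, 1395 and 1382 in DMSO and 449, 607 and 670.1 in RSL3, 3.20-fold lower (log2 fold change -1.62, SE 0.31, limma adjusted p = 0.0148). DMSO replicate 1 was 1.98 times the mean of the other DMSO libraries. With ATOH8 it went from scaled counts of 1849, 1995 and 1917 to 85.6, 138 and 139, a 15.9-fold fall (log2 fold change -3.99, SE 0.15, edgeR adjusted p = 1.09e-09) that ranked 4 among the 1424 rows.

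**Figure D3:**
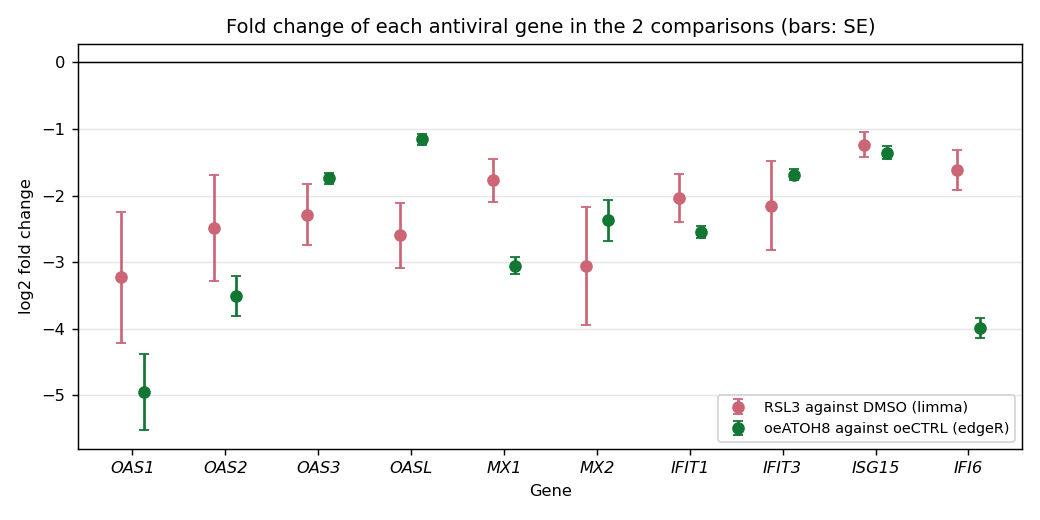
Log2 fold change of each gene with its SE, for RSL3 against DMSO by limma (red) and oeATOH8 against oeCTRL by edgeR (green). The edgeR SE was worked back from the F statistic. All 20 values lie below 0; OASL is near -2.60 in one comparison and -1.16 in the other, and IFI6 near -1.62 and -3.99.

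The order of the members by fold differed between the tables. From the largest drop, it ran OAS1, MX2, OASL, OAS2, OAS3, IFIT3, IFIT1, MX1, IFI6 and ISG15 with RSL3, and OAS1, IFI6, OAS2, MX1, IFIT1, MX2, OAS3, IFIT3, ISG15 and OASL with ATOH8. The RSL3 order depends on single libraries. Without RSL3 replicate 2 the largest folds were those of OAS2 (29.3), MX2 (15.2) and OAS1 (11.5), and with both libraries numbered 1 left out those of IFIT3 (3.96), MX2 (3.78), OASL (3.47), OAS2 (3.45) and OAS1 (3.31). With all libraries, Spearman's rho between the 2 sets of folds was 0.13 over the 10 genes, a description without a test, since the genes are not independent and the tables were normalised separately. The comparisons share no libraries. Of 251 named genes listed in both tables, 122 were lower in both (14.5% of the 842 named lower genes for RSL3 and 17.7% of the 689 for ATOH8), 79 were higher in both and 50 went opposite ways. The 10 members are among the 122.

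The basal levels kept more of their order. Per kilobase of the principal GENCODE transcript, the DMSO mean was highest for ISG15 (4743 normalised counts per kb), then IFI6 (2238), OAS3 (368), OASL (268), MX1 (244), IFIT1 (147), IFIT3 (58.3), OAS1 (32.0), MX2 (11.7) and OAS2 (3.80). Of the 9 neighbouring pairs in that order, the libraries overlapped for 2 (OASL with MX1, and IFIT3 with OAS1). In oeCTRL the order was ISG15 (3203 scaled counts per kb), IFI6 (2336), OAS3 (869), IFIT3 (853), MX1 (835), IFIT1 (795), OASL (344), OAS1 (81.3), OAS2 (58.5) and MX2 (47.1), with overlap in 4 pairs, which left OAS3, IFIT3, MX1 and IFIT1 in a row not separated from their neighbours. Spearman's rho between the 2 control orders was 0.88 over the 10 genes. With RSL3 this order held except that MX1 (75.9 normalised counts per kb) stood above OASL (49.8), but libraries overlapped for 6 of the 9 neighbouring pairs, MX1 with OASL included. In oeATOH8 the first 5 were ISG15 (1253 scaled counts per kb), IFIT3 (265), OAS3 (260.1), OASL (154) and IFI6 (147), and again 6 of 9 pairs overlapped, IFIT3 with OAS3 and OASL with IFI6 among them.

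For most members the drop was largest in replicate 1 of the RSL3 experiment. Replicates 2 and 3 were nearly alike, so which of them match across groups cannot be told, and they were matched by number alone. Taking libraries of equal number as pairs, all 10 members were lower in all 3 pairs, and the median log2 ratio (of values plus 1) over the members was -3.15 in pair 1, -1.36 in pair 2 and -1.75 in pair 3. Replicate 1 of RSL3 held 0 reads of MX2, OAS1 and OAS2. With it set to the limit of 3 reads for them, the median of pair 1 was -2.71, and the ratio was lowest in pair 1 for 9 of the 10. The exception was OAS2, at -1.29 in pair 1 and -3.38 in pair 3, where RSL3 had 1 read. OAS1 was at least 18.0-fold lower in pair 1 and MX2 at least 8.35-fold, by that limit in RSL3 replicate 1. Over all 803 tested lower genes, the medians of pairs 1, 2 and 3 were -1.14, -1.07 and -1.03. The count of 9 of 10 has no matching share of these 803 genes beside it, so it does not set the members apart. OAS3 fell 11.3-fold in pair 1 against 3.19-fold and 3.23-fold in the others, and OASL 18.7-fold against 3.42-fold and 3.53-fold. In the ATOH8 table deviations were barely correlated between libraries of equal number (0.041, 0.053 and 0.074), and the labels do not say whether these were pairs. Ratios between equal numbers, matched by number alone, had member medians of -2.12, -2.69 and -2.54.

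**Figure D4:**
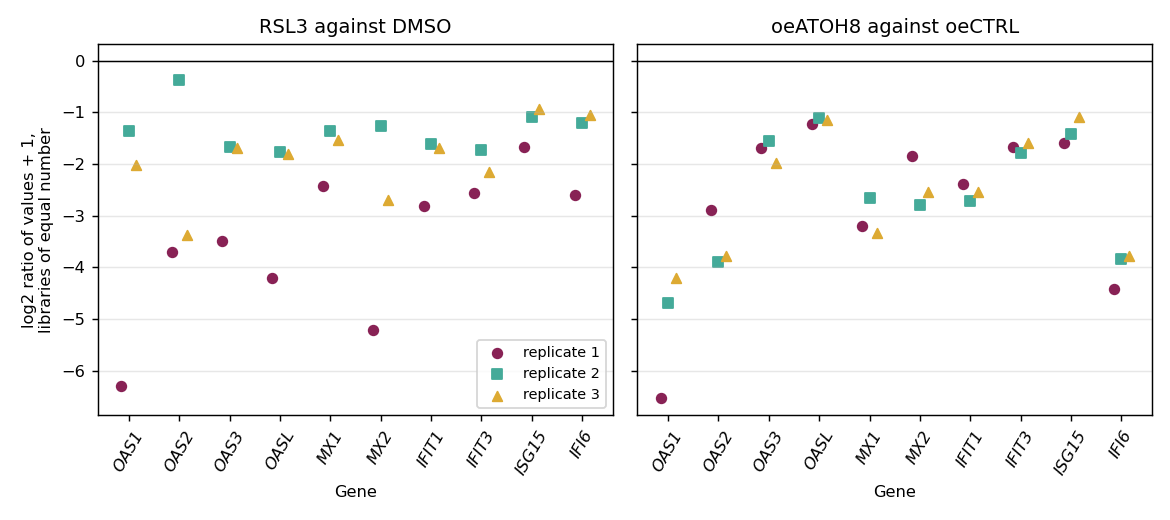
Log2 ratio of values plus 1 between treated and control libraries of equal number, for each gene (x axis), in the RSL3 table (left) and the ATOH8 table (right). In the left panel the replicate 1 points are the lowest for every gene, with OAS1, OAS2 and MX2 at 0 reads in RSL3 replicate 1. In the right panel, where it is not known whether equal numbers are pairs, OAS1, OAS2 and MX2 spread most.

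The rest of the interferon pathway was read from 5 lists of 90 genes that hold no member. Beside the counts below, 38.9% of the 1732 tested genes passed lower with RSL3 and 58.6% of the 1424 with ATOH8. No interferon gene (7 on the list) and none of 8 genes for ISG15 conjugation and feedback, such as USP18 and UBA7, was in either table. Of 11 receptor and signalling genes, 2 were listed for RSL3, both lower and passing by limma: IRF9, the DNA-binding part of the interferon-activated complex (455 ± 18.8 in DMSO and 204 ± 31.6 in RSL3, SD, n = 3, adjusted p = 0.0143), and the receptor chain IFNAR2 (982 ± 53.8 and 578 ± 92.1, adjusted p = 0.0242). Under ATOH8, IRF9 was listed and fell from 273 ± 84.3 to 62.3 ± 46.8 scaled counts (SD, n = 3, edgeR adjusted p = 0.000551).

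Few sensors of foreign nucleic acid were in the tables. Of 16 such genes, 3 were listed with RSL3 and 2 of them passed on the lower side: DHX58, a regulator of RIG-I-like sensors, was 3.16-fold lower, and the DNA sensor CGAS 1.47-fold. With scaling to listed totals the log2 fold change of CGAS went from -0.55 to -1.03 while its call ended (limma adjusted p = 0.0596). IFIH1, the sensor MDA5, read 35.9 ± 24.5 in DMSO and 8.76 ± 8.46 in RSL3 and missed the threshold (limma adjusted p = 0.0830). With ATOH8, 4 were listed and all 4 fell by edgeR: DHX58 (3.11-fold), IFIH1 (2.64-fold), the endosomal sensor TLR3 (3.17-fold) and the RNA-activated kinase EIF2AK2 (2.81-fold, from 12169 ± 584 to 4334 ± 87.6).

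Of 48 other interferon-stimulated effectors, 12 were listed with RSL3, 8 passing lower and 1 passing higher by limma. The membrane restriction factor IFITM3 was 3.33-fold lower, the antibody receptor TRIM21 1.89-fold, the lipoprotein APOL1 2.41-fold and LGALS3BP 2.29-fold. Under ATOH8, 17 were listed and 17 fell by edgeR, among them SAMD9 (4.95-fold), IFITM3 (3.19-fold), APOL6 (3.30-fold) and PLSCR1 (2.32-fold). Over all 5 lists, 17 of 90 genes were listed with RSL3 (12 passing lower, 1 higher). With ATOH8, 22 were listed (22 lower, 20 of them with every annotated gene and locus counted as a test). Their median log2 fold change with RSL3 was -1.25, against 0.51 for all tested genes and -1.10 for the tested genes that were lower. With ATOH8 it was -1.62, against -1.10 for all tested genes and -1.41 for the lower ones. With replicates 2 and 3 averaged, limma passed 0 of the 17 listed with RSL3 (10 at an unadjusted p under 0.05). With scaling to listed totals, TMM or relative log expression, 10, 11 and 11 passed lower and 0 higher. Of the 1732 tested genes, 480, 638 and 639 passed lower under these scalings. For ATOH8 the same scalings left 22, 22 and 21, where 835, 833 and 418 of the 1424 tested genes passed lower. The interferon core motif was present in 7 of the 10 listed lower pathway genes with a promoter window for RSL3 and in 11 of 15 for ATOH8.

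**Figure D5:**
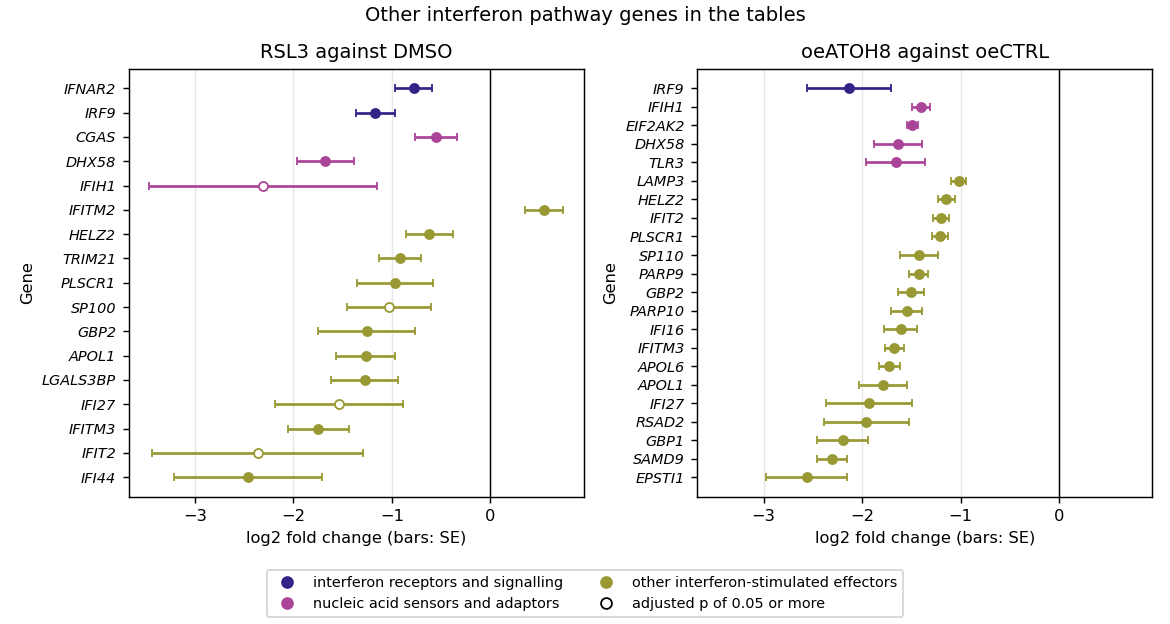
Log2 fold change with SE of the pathway genes outside the 10 members that the tables list, coloured by role, for RSL3 (left) and ATOH8 (right); open circles have an adjusted p of 0.05 or more. All are below 0 except IFITM2 in the RSL3 panel. The SE for ATOH8 was worked back from edgeR's F statistic.

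Some listed genes outside the pathway had profiles close to that of the members. Likeness was the Euclidean distance between a gene's centred log2 profile over the 6 libraries of a table and the median profile of the members with a mean of at least 50 (7 in the RSL3 table, 10 in the ATOH8 table). In the RSL3 table the nearest non-members among 1377 genes were the junctional adhesion molecule JAM3 (distance 0.146), the chemokine CCL28 (0.326), the filament protein LAD1 (0.341), the ectoenzyme BST1 (0.505) and the chemokine CXCL2 (0.514), where the members themselves ranged from 0.102 (IFIT1) to 1.40 (IFIT3). For ATOH8 they were, of 1054 genes, the small GTPase RHOV (0.253), the histone H2BC4 (0.264), the coagulation factor subunit F13A1 (0.299), the translation factor EIF5A2 (0.308) and CEMIP (0.325), which acts in hyaluronan breakdown, with members from 0.198 (IFIT1) to 4.27 (OAS1). In both tables IFIT1 was the member closest to the median profile, of which it is itself a part.

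Markers of other cell types were checked beside these results. Leukocytes can express the members strongly. Of 8 leukocyte markers only CD68 was listed, in the RSL3 table, at 787 to 1607 normalised counts in DMSO and 1498 to 4290.3 in RSL3. Its mean was higher with RSL3, but the groups overlapped and it missed the threshold (limma adjusted p = 0.0538). Replicate 1 was the highest library of both groups. Of 3 plasmacytoid markers only IL3RA was listed, in the ATOH8 table, at 157 to 201 scaled counts in oeCTRL and 42.1 to 48.6 in oeATOH8. Of 5 erythroid markers, HBB, HBA1 and HBA2 were listed in the ATOH8 table, summing to 4.11 to 12.6 scaled counts in oeCTRL and 3224 to 55109 in oeATOH8, with HBB at 0 reads in all 3 oeCTRL libraries. The part of these transcripts in the fall of the members was not tested.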

How the data were processed

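The RSL3 table holds a signal per gene and library that the authors deposited without naming its unit. Its values (100% within a tolerance of 0.001) were whole multiples of one step per library, as reads divided by a size factor are. The authors deposited whole-number counts in the ATOH8 table, per the file headers, where NC was taken as oeCTRL and OE as oeATOH8. The submitters' processing notes name fastp, HISAT2, StringTie and DESeq2 without roles, and the build hg38 (GRCh38). No value column was left out.

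RSL3 rows, given by position and strand, were named by reciprocal overlap of at least 0.5 with RefSeq genes (1065 by the same span and 707 by overlap, of 1810) or GENCODE genes (12); ATOH8 rows were named by Ensembl ID (1146 of 1152). RSL3 values kept the deposited scaling and were tested with limma 3.58.1 (trended variance) on log2(value + 1). ATOH8 counts were tested with edgeR 4.0.16 (quasi-likelihood), scaled within a group by median ratios and between groups so that the empty interval around a log2 ratio of 0 (-0.97 to 1.03) was centred, which assumes symmetric fold limits. Genes were filtered with filterByExpr (minimum count 10, total 15), which all 10 members passed. All tests were two-sided, and p-values were adjusted across the listed genes by Benjamini-Hochberg. RSL3 fold changes are on the log2(value + 1) scale, on which the pseudocount shrinks ratios of low values, and folds are ratios of group means. For OAS1, OAS2 and MX2, each with a library at 0, the fitted values (-3.23, -2.48 and -3.06) exceed in size the log2 ratios of means (-2.68, -2.29 and -2.51). The code was tested on simulated data. DESeq2 1.42.0 under R 4.3.3 was an alternative. In the RSL3 table, deviations from the group mean were correlated between libraries of equal number (0.68, 0.61 and 0.61 for replicates 1, 2 and 3). Because replicates 2 and 3 were nearly alike, the values for 2 and 3 largely follow from replicate 1. They cannot show that 2 pairs with 2 and 3 with 3. Replicate numbers were taken as pairs with that limit. The members and gene lists were chosen with earlier results of these data known, and 1 gene of the lists is not reported here. Genes outside the members were named as the passing genes of lowest adjusted p, up to 4 from each list, and the 5 nearest profiles per table; IFIH1 with RSL3, the cell type markers and the genes of the closing section were named after their values were seen.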

Additional observations from a re-analysis of the deposited data

How the results depend on the processing

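With RSL3, limma passed 674 listed genes on the lower side and 10 members. Leaving out 1 library gave 1 to 718 genes and 0 to 9 members. Without DMSO replicate 3 or 2 it gave 2 and 1 genes and 0 members (9 and 10 at an unadjusted p under 0.05). Averaging replicates 2 and 3 gave 1 gene and 0 members, counting every annotated gene as a test gave 0 and 0, and doing so with the replicate block, chosen after seeing the data, also gave 0 and 0. Keeping only genes with a mean of at least 50 gave 419 of 1391 tested, and 7 of the 7 members left. The replicate block alone gave 798 genes and 10 members and changed no member's call. Scaling to listed totals, TMM or relative log expression shifted all log2 fold changes by -0.47, -0.33 and -0.31 and moved the calls from 747 higher and 674 lower to 154 and 480, 239 and 638, and 259 and 639. No member reversed in any setting; over the RSL3 alternatives, 137 single-member results kept their side of the threshold and 60 lost it, and the cause was not tested.

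With ATOH8, 835 genes and 10 members passed on the lower side. Leaving out 1 library gave 829 to 835 and 10, and the replicate block 835 and 10. Correlations between equal numbers were 0.041, 0.053 and 0.074, too weak to show pairing by number there. Totals, TMM and relative log expression shifted log2 fold changes by -0.46, 0.31 and 0.91, and the last left 418 genes lower and all 10 members. Low reads limit OAS1, OAS2 and MX2 with RSL3.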

Other observations

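The neighbouring paralogs IFITM2 and IFITM3, both membrane proteins that block the entry of viruses, went opposite ways with RSL3. IFITM3 was lower, at normalised counts of 1185, 719 and 743 in DMSO and 171, 311 and 313 in RSL3. IFITM2 was the one listed pathway gene above its control, at 558, 507 and 518 in DMSO and 634, 821 and 881 in RSL3 (1.48-fold, log2 fold change 0.55, SE 0.19, limma adjusted p = 0.0407). That call ended with scaling to listed totals, TMM or relative log expression (log2 fold change 0.08, 0.22 and 0.24). These genes share near-identical stretches, and how reads were divided between them was not tested. In the ATOH8 table IFITM3 fell, from scaled counts of 841, 819 and 801 to 262, 259 and 250.3.

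RSL3 replicate 1 was not the lowest RSL3 library for every interferon gene. LGALS3BP read 602, 289 and 264 normalised counts in RSL3 and 1093, 745 and 806 in DMSO. HELZ2 read 1894, 1204 and 1227 in RSL3 and 2663, 1913 and 1999 in DMSO, and IFI27 read 20.3, 7.50 and 4.69 against 60.5, 23.7 and 15.7. Replicate 1 was the highest in both groups, and within it each of these genes was lower with RSL3. IFIT2, a neighbour of IFIT3 in the same cluster, read 27.5, 111 and 114 in DMSO and 1.45, 24.4 and 42.2 in RSL3 and missed the threshold (limma adjusted p = 0.063). With ATOH8, IFIT2 fell from 2108, 2181 and 2359 scaled counts to 1002, 871 and 1024.6.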
